A study of Mus musculus with 3 samples.

Results

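Supporting cells are the epithelial cells that hold the sensory hair cells of the cochlea in place. In 3 single-cell libraries they were taken here as 83 of 849 cells with RNA of Epcam, an epithelial adhesion molecule, and of 1595 cells kept in all. A cell was a member when the mean log level of 5 supporting cell genes (Sox2, Otog, Rorb, Gjb2 and Ceacam16) was above that of 3 other sets of 5 genes, and when at least 2 of the 5 had a UMI (unique molecular identifier, 1 captured RNA molecule). The other sets mark Epyc- and Aqp4-expressing epithelium (the E set), Gabrp- and Alox15-expressing epithelium (the G set) and Vmo1- and Otx2-expressing epithelium (the R set). The members were thus chosen by measured values of these 20 genes and Epcam, whose levels are given only as a description.

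The cells came from cochlear explants of mice aged 4 to 6 weeks that carried rtTA, which binds DNA in the presence of doxycycline (Dox), with tet-on-Myc and tet-on-NICD. NICD is the intracellular domain of the Notch receptor. The explants grew in DMEM/F12 with the N2 and B27 supplements, and the sensory epithelium was then dissected and dissociated with trypsin. Dox replicate 1 and Dox replicate 2 had received 2 µg/ml Dox for 4 days, and the control had received sterile water. Each library is labelled n = 4, and all 3 carried the transgenes. No library had Dox without the transgenes, so the drug and the transgenes cannot be told apart, and the promoter that drives rtTA is not given in the labels. The comparison addresses how adult supporting cells respond when both transgenes are switched on. With 2 Dox libraries and 1 control, p-values measure only the spread between 2 libraries, which may be technical.

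Notch is a receptor whose intracellular domain, once cut free, joins the DNA-binding protein RBPJ in the nucleus and switches on repressor genes of the Hes and Hey families. In the developing cochlea, hair cells present Notch ligands and their neighbours become supporting cells. MYC is a transcription factor that drives growth, above all the making of ribosomes, and binds the sequence CACGTG with its partner MAX. Adult mammalian supporting cells do not normally divide or replace lost hair cells.

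Notch acts directly on its effector genes, so the 250 bases before the start of 3 of them, each higher in both Dox libraries in the results below, are shown from RefSeq, on the strand of the gene in the GRCm38.p6 build. Capitals mark TGGGAA or its reverse complement TTCCCA, the core of the sequence that RBPJ binds, in Hes5 and Hey2, and CACGTG in Nrarp.
Hes5, chr4:154960673-154960922 on the plus strand: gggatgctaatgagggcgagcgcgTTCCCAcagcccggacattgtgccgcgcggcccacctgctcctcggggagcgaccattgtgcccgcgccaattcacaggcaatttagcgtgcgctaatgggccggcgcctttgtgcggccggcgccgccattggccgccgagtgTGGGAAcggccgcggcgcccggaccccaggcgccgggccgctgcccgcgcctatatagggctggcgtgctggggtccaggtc
Hey2, chr10:30842784-30843033 on the minus strand: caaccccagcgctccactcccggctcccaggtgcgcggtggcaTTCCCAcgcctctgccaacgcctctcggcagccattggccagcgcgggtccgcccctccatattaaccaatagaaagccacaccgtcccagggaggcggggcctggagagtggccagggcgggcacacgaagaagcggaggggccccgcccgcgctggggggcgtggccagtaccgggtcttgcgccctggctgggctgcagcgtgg
Nrarp, chr2:25180508-25180757 on the plus strand: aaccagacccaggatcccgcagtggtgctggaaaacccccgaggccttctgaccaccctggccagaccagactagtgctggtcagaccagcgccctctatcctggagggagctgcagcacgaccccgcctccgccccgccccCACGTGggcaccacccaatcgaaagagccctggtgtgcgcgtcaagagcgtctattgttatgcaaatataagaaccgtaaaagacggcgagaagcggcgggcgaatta
The Hes5 stretch held this core at 226 and 82 bases before the start, and the Hey2 stretch at 207 bases. No TGGGAA was found in the Nrarp stretch, which held CACGTG at 108 bases before the start. On either strand, TGGGAA was present in 7094 of 32851 such stretches (21.6%) and CACGTG in 1978 (6.02%). Of 4 Notch effectors in the table, 2 held TGGGAA and 1 held CACGTG. Among 24 ribosome assembly genes in it, 8 held TGGGAA and 1 held CACGTG. These matches describe the letters in the window and do not show binding.

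The members numbered 36 in Dox replicate 1, 27 in Dox replicate 2 and 20 in the control. They were 16.7% of the Epcam-positive cells in Dox replicate 1 (95% Clopper-Pearson interval 12.0 to 22.4%), 4.96% in Dox replicate 2 (3.30 to 7.14%) and 22.2% in the control (14.1 to 32.2%). The intervals of the 2 Dox libraries do not overlap, and the lowest share was in Dox replicate 2, which held 220 R-set cells, against 44 in Dox replicate 1 and 16 in the control. With every cell thinned to 1000 UMIs before the rule, the shares were 6.97%, 1.57% and 21.4%, on 201, 510 and 56 cells deep enough. The number of supporting cells dissected and their survival were not measured, so the shares describe the libraries only.

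Depth differed between the groups. Members gave 2022457 UMIs in Dox replicate 1, 1468207 in Dox replicate 2 and 448191 in the control, with medians of 31824, 37045 and 18941.5 UMIs per cell. The 3 deepest cells held 31.8%, 32.2% and 38.4% of these UMIs. Because few cells supply each sum, a level that rests on 1 cell is named as such. All 5 rule genes had a UMI in 19, 7 and 5 cells, and only the minimum of 2 in 3, 8 and 6. Cells in which the supporting set was highest but only 1 of its genes had a UMI, which stayed outside, numbered 6, 4 and 5, with median depths of 2771.5, 30280 and 725 UMIs. The cells just inside, with 2 genes, had median depths of 10031, 30839 and 4786.5 UMIs.

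Several other measures differed between the libraries, some of them with treatment and some not. Mitotic cells were those with UMIs of at least 5 mitosis genes. They were 10 of the 36 members of Dox replicate 1, 10 of 27 in Dox replicate 2 and 1 of 20 in the control. They gave 62.1%, 60.9% and 17.4% of the UMIs. These cells were counted at unequal depths, and the part of depth was not tested. In E-set cells 44 of 60, 80 of 116 and 1 of 7 were mitotic. Little of the nuclear RNA Malat1 was found in 16, 3 and 3 members. UMIs of Y-linked genes were found in 0, 1 and 12 members, and of Xist in 20, 22 and 5, while the labels give no sex. Over all kept cells, Y-linked UMIs were in 70 of 465 in Dox replicate 1, 3 of 824 in Dox replicate 2 and 73 of 306 in the control. Dox replicate 1 thus held such cells outside the members. The libraries shared 68 to 101 barcodes per pair, and 8, 3 and 8 members carried a barcode seen in another library. In 0, 2 and 2 of them that barcode had at least 10 times the UMIs elsewhere. Scrublet marked no member as a doublet, though it marked only 6 cells in all and was not relied on, and 8, 6 and 2 members had UMIs of at least 3 markers of another type. Counts of called genes without these cells are given with the results.

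Markers outside the rule were checked against the label. Levels of 16 supporting cell genes that the rule did not use were summed in CPM (UMIs scaled to 1 common total per library). Members had 1717 CPM in Dox replicate 1, 1465 CPM in Dox replicate 2 and 1988 CPM in the control, from 15, 16 and 10 detected genes. E-set cells had 715, 579 and 968 CPM, G-set cells 567, 484 and 877 CPM, and R-set cells 449, 436 and 549 CPM. At least 3 of the 16 were found in 35, 24 and 14 members, and in 56, 101 and 6 of the 60, 116 and 7 E-set cells. The sum was thus higher in members, but most E-set cells also carried these genes. Tectb gave 588 of the members' 2151 UMIs in Dox replicate 2. In Dox replicate 1, Fabp7, Jag1 and Hes5, each higher in both Dox libraries below, gave 653, 360 and 267 of 3472 UMIs. Hes5, Prox1, Fgfr3, Sparcl1, Tectb and Tecta had 0 UMIs in the control members. There Slc1a3, Sox9 and Cdkn1b gave 276, 247 and 143 of 891 UMIs. With TMM scaling, explained below, these were at 516, 462 and 267 CPM, against 21.4, 414 and 321 CPM in control E-set cells. In members, hair cell markers summed to 52.9, 26.6 and 417 CPM, with at least 3 of them in only 2, 1 and 1 cells. Glial markers summed to 116, 96.0 and 205 CPM, fibroblast markers to 10.9, 70.2 and 129 CPM, neuronal markers to 5.4, 3.4 and 37.9 CPM, pericyte markers to 65.3, 68.8 and 15.6 CPM, and markers of stria marginal cells to 25.2, 44.3 and 107 CPM. Notch3, also a Notch pathway gene, gave 130, 91 and 6 of the 132, 101 and 7 pericyte marker UMIs. Sox10, an otic as well as a glial factor, gave 193, 99 and 77 of the 235, 141 and 92 glial marker UMIs. Macrophage markers summed to at most 0.5 CPM and endothelial markers to at most 2.0 CPM in any library. The part of these other cell types in the results was not tested.

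Of the rule genes, Ceacam16, which encodes a protein of the tectorial membrane, was at 559 and 129 CPM in the Dox libraries, against 1743 CPM in the control. Otog, which encodes the matrix protein otogelin, was at 157 and 87.2 CPM, against 326 CPM in the control. Both lay lower in each Dox library than in the control. Gjb2, the gap junction protein connexin 26, was at 745 and 384 CPM, against 1261 CPM. Rorb, a nuclear receptor, was at 184 and 112 CPM, against 272 CPM. In these CPM, which are not scaled for composition, all 4 were thus lower in both Dox libraries. Epcam was too, at 1398 and 1090 CPM against 4038 CPM. Sox2, a transcription factor of the sensory progenitors, was at 240 and 114 CPM in the Dox libraries, on both sides of the 120 CPM in the control, while with TMM scaling, edgeR's correction for composition, it was at 276 and 124 CPM, above the control's 99.1 CPM. The TMM factors of the library totals were 0.876 and 0.929 in the Dox libraries and 1.23 in the control, so this scaling narrows the falls above. In unscaled CPM the rule genes were thus not at the same level under both treatments. As their values chose the cells, no test result is given for them.

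Across the members, 126 of 10180 tested genes rose with Dox (1.24%) and 48 fell (0.472%) on UMIs summed per library. The test was the quasi-likelihood F test of edgeR, with 0.05 as the threshold. P-values were adjusted by the Benjamini-Hochberg method over all 10195 genes in the fit. These held 15 rule genes, which are left out of the 10180 and of the counts. Both Dox libraries lay above the control for 41.4% of the tested genes and below it for 38.6%. At an unadjusted p of 0.05 or less there were 1721 genes. CPM below are scaled by TMM. With scaling to total counts instead, which moved the median of all genes from 0.04 to -0.41 on the log2 scale, 110 genes rose and 181 fell. Left without the 21 mitotic members, the cells gave 379 rises and 209 falls. Without the members that had markers of other types, 34 genes rose and 41 fell. Without members low in Malat1, 179 rose and 81 fell, with 80 of 82 ribosomal protein genes among the rises. Without members with Y-linked UMIs, which leaves 8 control cells, 123 rose and 33 fell, and 114 of the 174 calls were shared. Without members that carried a shared barcode, 189 rose and 95 fell. The adjusted p in the following sentences come from this edgeR test over all genes.

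Of the Notch pathway, Notch1 and Nrarp rose in Dox-treated supporting cells, and Hes5, Heyl, Hey1, Hey2, Jag1 and Notch3 were at higher levels in both Dox libraries without passing the test. Notch1, the receptor whose intracellular domain the transgene encodes, was at 469 and 399 CPM in the Dox libraries, against 64.2 CPM in the control. It rose by 2.75 on the log2 scale (SE 0.315, adjusted p = 0.0154). The gene lies at chr2:26457903-26516663, and the deposited counts cannot separate transgene RNA from that of the endogenous gene. Notch1 UMIs were found in 34 of 36 and 23 of 27 Dox cells and 12 of 20 control cells, so most cells of the Dox libraries carried them. The call was lost when member cells were thinned to 1000 UMIs, at a difference of 1.22, and when the rule was applied after thinning, at 3.66. Per cell the median was 3.67 and 3.23 UMIs per 10000 in the Dox libraries, against 0.345 in the control.

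Detection at equal depth was less distinct. Thinned to 1000 UMIs, Notch1 was found in 27.8% and 24% of Dox members and 15.0% of control members. In macrophage-marker cells the thinned shares were 21.9%, 19% and 27.3%, so the share of supporting cells with a Notch1 UMI at that depth did not stand above this background. In CPM over all UMIs, macrophage-marker cells had 191, 137 and 64.9 in Dox replicate 1, Dox replicate 2 and the control. They were thus also higher in both Dox libraries, though below the supporting cells' Dox levels. In all, 2 members of Dox replicate 2 were too shallow to be thinned.

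Nrarp encodes an inhibitor that the Notch signal itself induces. It had 629 and 300 UMIs in the Dox libraries (358 and 222 CPM), against 2 UMIs in the control (3.67 CPM), both in 1 mitotic cell. The ratio of levels was 81.3, with a 95% counting interval of 22.4 to 673 and an adjusted p of 0.0128, and the call held under all 14 alternatives that could be tested. The gene lies at chr2:25180758-25183339. Nrarp was found in 35 of 36 and 19 of 27 Dox cells and in 1 of 20 control cells, at unequal depths. In macrophage-marker cells, of median depths 18934, 25101 and 13516.5 UMIs, it was found in 4 of 37 and 4 of 23 Dox cells and in 0 of 12 control cells. After thinning it was in 25.0% and 28.0% of Dox members and in 0 of 20 control members, which allows a share of cells with a UMI at that depth of up to 15.0%, and does not limit the share that express it. In thinned macrophage-marker cells it was in 0 of 32 and 0 of 21 Dox cells and 0 of 11 control cells.

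Among the effector repressors, Hes5, at chr4:154960923-154962371, had 267 and 55 UMIs in the Dox libraries, against 0 in the control. Its level of 152 and 40.6 CPM was, for both Dox libraries together, at least 18.8-fold higher than in the control, with the control set at 3 UMIs (adjusted p = 0.122). The bound was 27.6-fold from Dox replicate 1 alone and 7.38-fold from Dox replicate 2 alone. These UMIs were uneven between cells: 21 of 36 and 7 of 27 Dox cells had any, and 1 cell held 28.5% and 43.6% of them. Heyl was at 218 and 84.2 CPM, against 12.8 CPM in the control (log2 difference 3.55, SE 0.817, adjusted p = 0.112). Hey1 was at 147 and 137 CPM, against 40.4 CPM (1.82, SE 0.348, adjusted p = 0.0743). For Heyl and Hey1, both Dox libraries thus lay above the control. Hey2 was at 38.1 and 36.2 CPM, against 7.34 CPM (adjusted p = 0.125). Hes1, which many other signals also induce, was at 46.1 and 235 CPM, on either side of the control's 143 CPM. Of the 9 effectors tested, 1 rose, none fell and 7 were higher in both Dox libraries, with a median log2 difference of 2.32, or 1.82 with genes without control UMIs at their bound, against 0.04 over all genes. Without the 3 deepest cells of each library 5 of 9 rose, and without mitotic members 4 of 7. Both of these sets of cells also gave more calls over all genes, as listed at the end. Hes1, Hey2, Lfng, Slc1a3, Gjb6 and Sox9 are outside the naming rule and were chosen after their values were seen.

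Among ligands and receptors, none of 18 tested genes passed. Jag1, the ligand that supporting cells themselves carry, was nearest, at 205 and 146 CPM in the Dox libraries against 29.4 CPM in the control (2.57, SE 0.423, adjusted p = 0.0508). Notch3 was at 73.9 and 67.2 CPM, against 11 CPM (2.67, SE 0.476, adjusted p = 0.0634). Lfng, a glycosyltransferase that changes how Notch reads its ligands, was at 102 and 49.5 CPM, on either side of 99.1 CPM in the control, where 55.6% of its UMIs came from 1 cell. Jag1 and Notch3 lay above the control in both Dox libraries. The list's median log2 difference was -0.10.

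**Figure D1:**
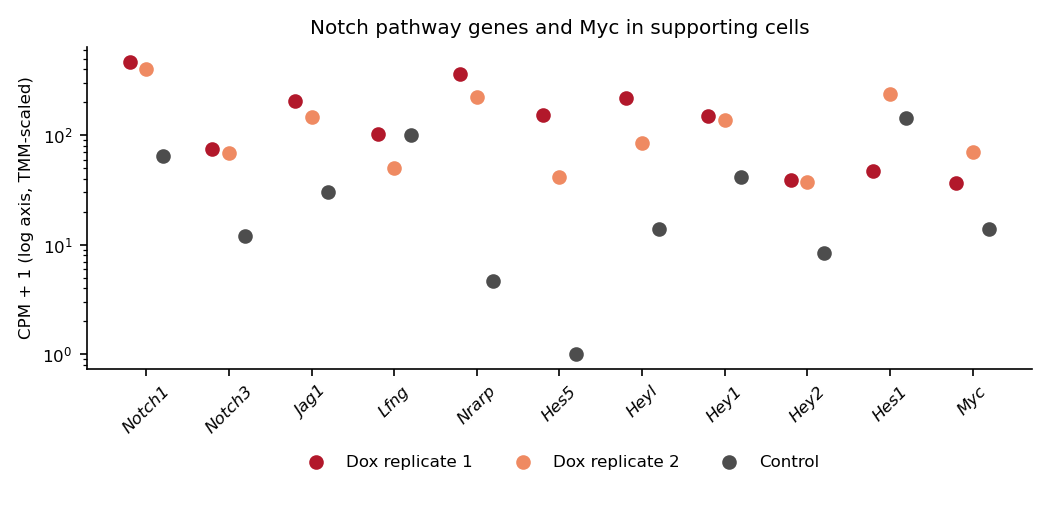
Levels of Notch pathway genes and Myc in supporting cells, as CPM plus 1 on a log axis, with 1 point for each library (Dox replicate 1, Dox replicate 2, control). Notch1, Notch3, Jag1, Nrarp, Hes5, Heyl, Hey1, Hey2 and Myc lie higher in both Dox libraries, and Hes1 and Lfng lie on either side of the control.

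Myc itself was at 35.3 and 69.4 CPM in the Dox libraries, against 12.8 CPM in the control, and the difference did not pass the test (2.01, SE 0.679, adjusted p = 0.229). Myc UMIs were in 19 of 36 and 18 of 27 Dox cells and in 4 of 20 control cells. As for Notch1, transgene and endogenous RNA cannot be told apart. Of 10 partners and antagonists of MYC, none passed, and their median was -0.11.

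The broadest change in supporting cells was in the machinery of protein synthesis, and it was not particular to them. Of 82 cytosolic ribosomal protein genes, 73 rose and none fell, all 82 were higher in both Dox libraries, and the median log2 difference was 1.92. Rpl10a was at 4061 and 4116 CPM in the Dox libraries, against 664 CPM in the control (2.62, SE 0.206, adjusted p = 0.0128). Rps12 was at 8591 and 8471 CPM, against 1710 CPM (2.32, SE 0.182). Both lay above the control in each Dox library by more than the Dox libraries differed from each other. Rps18 was at 3589 and 3538 CPM, against 615 CPM (5.80-fold higher). Rpl27a was at 7929 and 7471 CPM, against 1628 CPM (2.24, SE 0.186). For Rps18 and Rpl27a too, the control lay far below both Dox libraries, which were close to each other. Reads of ribosomal genes can fall on near-identical pseudogenes, so single values are uncertain in how the counting divided them. In E-set cells, of which the control had 7, the median log2 difference over the 82 ribosomal protein genes was 1.27. Over 29 genes that assemble ribosomes it was 1.76 there.

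mRNAs of ribosomal proteins took 3277 and 3304 of every 10000 UMIs in the Dox members, against 1235 in the control. The medians over cells were 3179, 2956 and 1355, with ranges of 783 to 5008 and 92.1 to 5372 in the Dox libraries against 588 to 3189 in the control, so single cells overlapped. Without mitotic members 81 of 82 genes rose, with a median of 1.79. Without the members that had Y-linked UMIs 77 rose. Without members that had markers of other types 2 of 82 rose, at a median of 1.89, and with the rule applied after thinning none did, at a median of 2.09. The direction was thus the same while calls were lost in those sets of cells, and why was not tested. Without markers of other types 28, 21 and 18 members were left in Dox replicate 1, Dox replicate 2 and the control. The rule applied after thinning left 14, 8 and 12. Without mitotic members, where the calls held, 26, 17 and 19 were left.

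Genes that assemble ribosomes in the nucleolus moved the same way, with 8 of 29 risen, none fallen and all 29 higher in both Dox libraries, at a median of 2.19. Npm1, the nucleolar chaperone nucleophosmin, was at 2166 and 3653 CPM in the Dox libraries, against 384 CPM in the control (2.92, SE 0.383, adjusted p = 0.0248). Dkc1, the pseudouridine synthase of H/ACA particles, was at 104 and 130 CPM, against 12.8 CPM (9.03-fold higher, adjusted p = 0.0323). Nhp2, another protein of those particles, was at 340 and 418 CPM, against 58.7 CPM (2.69, SE 0.332, adjusted p = 0.0211). These 3 lay higher in both Dox libraries by more than the Dox libraries differed. Wdr43, a factor of the small subunit processome, was at 173 and 197 CPM, against 23.9 CPM (2.95, SE 0.379, adjusted p = 0.0242). Nop58, a core protein of C/D particles, was at 240 and 278 CPM, against 42.2 CPM (2.61, SE 0.341, adjusted p = 0.0247). The remaining 3 that rose were Ncl, Nop56 and Gnl3. Without mitotic members, 16 of 27 assembly genes rose, while the rises over all genes were also more numerous there, as given above.

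Synthesis of nucleotides and polyamines was less uniform. Of 27 genes, 1 rose, none fell and 22 were higher in both Dox libraries, at a median of 1.30. Impdh2, which controls the supply of guanine nucleotides, was at 193 and 247 CPM in the Dox libraries, against 34.9 CPM in the control (2.66, SE 0.378, adjusted p = 0.0323). Srm, spermidine synthase, was at 62.0 and 126 CPM, against 7.34 CPM, and did not pass (adjusted p = 0.0916). Odc1, the first enzyme of polyamine synthesis, was lower, at 250 and 323 CPM against 785 CPM, and did not pass (-1.46, SE 0.258, adjusted p = 0.0626). Without members that had Y-linked UMIs, Odc1 had a difference of 0.51. The 13 mitochondrially encoded genes had a median of 1.06 and 12 were higher in both Dox libraries, but none passed. The share of mitochondrial UMIs per cell, a measure of RNA quality as well, had medians of 5.15%, 4.33% and 3.45% in Dox replicate 1, Dox replicate 2 and the control.

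**Figure D2:**
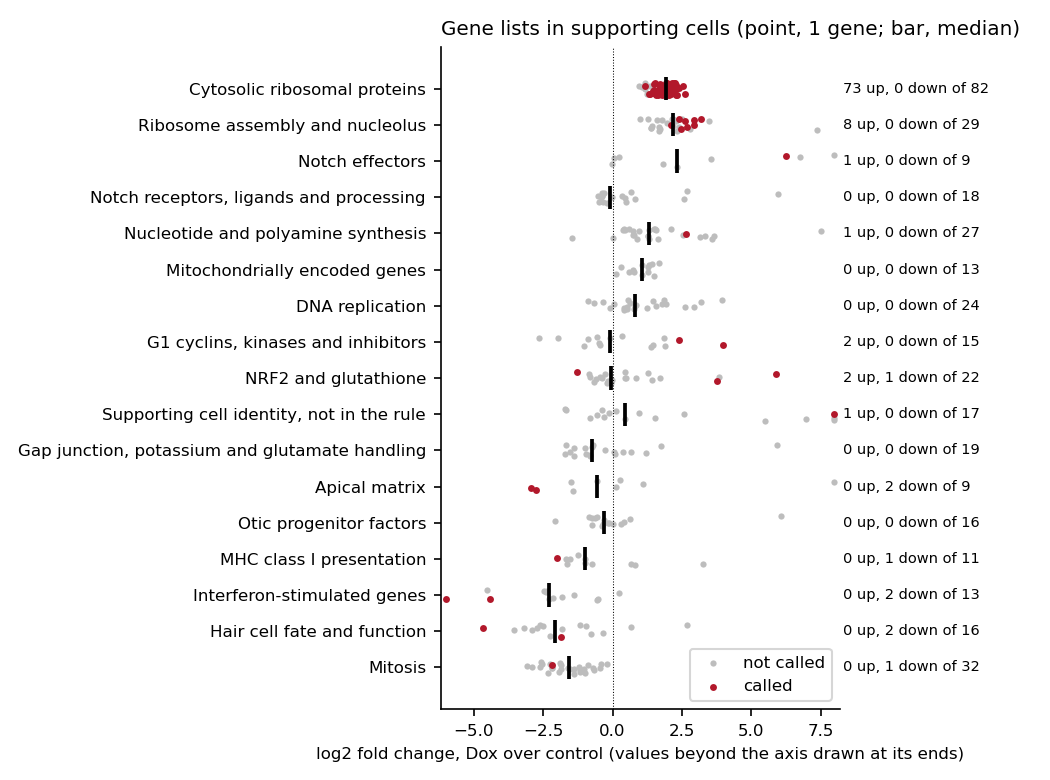
Log2 fold change of Dox over control in supporting cells for the genes of 17 lists, with 1 point for each gene, red where it passed the test, and a bar at the list's median. The counts at the right give the genes that rose and fell of those tested, such as 73 and 0 of 82 ribosomal protein genes.

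Few cell cycle genes passed the test. The G1 kinases Cdk4 and Cdk6, which start the cycle with cyclin D, were the 2 of 15 G1 genes that rose, while 7 were higher and 8 lower in both Dox libraries, at a median of -0.08. Cdk4 was at 169 and 200 CPM in the Dox libraries, against 34.9 CPM in the control (2.40, SE 0.364, adjusted p = 0.0383). Cdk6 was at 101 and 76.1 CPM, against 5.51 CPM from 3 control UMIs, and thus 16.4 times as high (counting interval 5.55 to 80.0, adjusted p = 0.0323). Their partner Ccnd1, cyclin D1, was at 187 and 217 CPM, against 55.1 CPM, and did not pass (adjusted p = 0.0632). In the control, 86.7% of Ccnd1 UMIs came from 1 cell.

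None of 24 DNA replication genes passed, with a median of 0.80 and 18 higher in both Dox libraries. Of 32 mitosis genes, none rose, 1 fell and 28 were lower in both Dox libraries, at a median of -1.57. The deepest control cell held 96.7% of the mitosis list's UMIs in that library, while mitotic cells were a larger share of the Dox members, as given above. With the 3 deepest cells of each library left out, the median was 3.31, and without members that had Y-linked UMIs it was 7.22. Prc1, a protein of the spindle midzone, fell to 68.2 and 78.3 CPM in the Dox libraries, against 334 CPM in the control (-2.19, SE 0.273, adjusted p = 0.0218), with 98.4% of its control UMIs in that cell. Without members that had Y-linked UMIs its difference was 3.11.

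**Figure D3:**
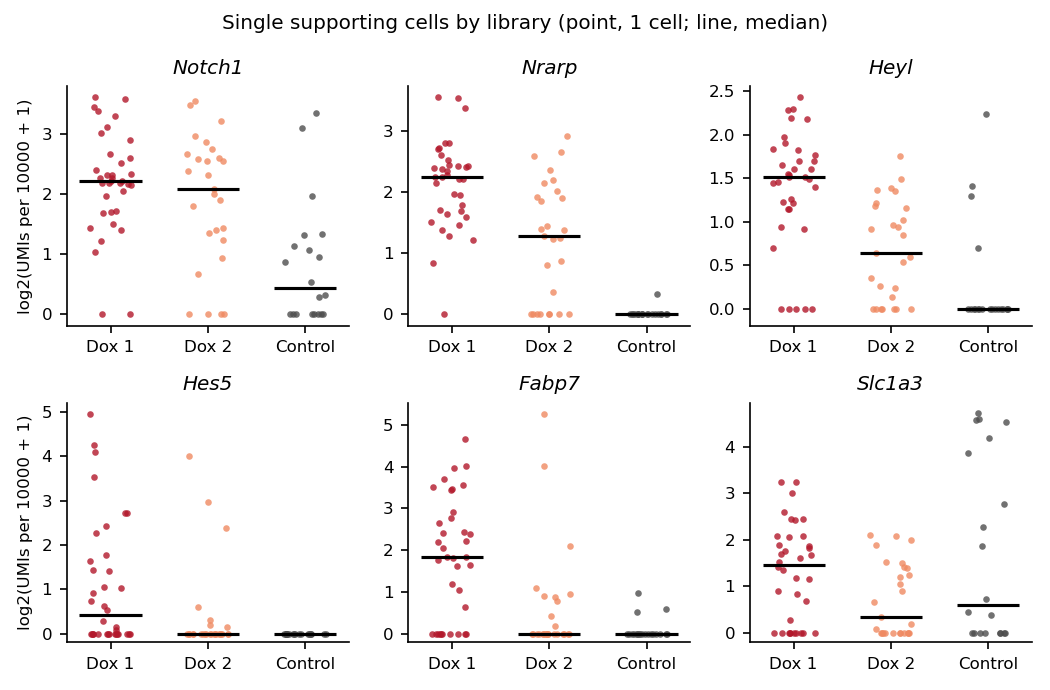
Levels of 6 genes in single supporting cells of each library, as log2 of UMIs per 10000 plus 1, with 1 point for each cell and a line at the median. Most Dox cells carry Notch1 and Nrarp, against 12 and 1 of 20 control cells, while Hes5 and Fabp7 are uneven between cells and Slc1a3 reaches its highest value in a control cell.

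The genes that name supporting cells did not move as 1 group. Of 17 identity genes outside the rule, 1 rose and none fell, at a median of 0.46. Fabp7, a fatty acid binding protein of supporting cells and glia, was at 371 and 129 CPM in the Dox libraries, against 5.51 CPM from 3 control UMIs, a ratio of 48.3 (16.5 to 235, adjusted p = 0.0705), or 67.4 from Dox replicate 1 and 23.3 from Dox replicate 2 alone. It was found in 26 of 36 and 10 of 27 Dox cells and in 3 of 20 control cells, and 1 cell held 65.5% of its UMIs in Dox replicate 2. Sox9, a transcription factor of the whole otic epithelium, was at 440 and 299 CPM, against 453 CPM. Lgr5, a Wnt pathway receptor of a subset of supporting cells, was at 21 and 19.2 CPM, against 14.7 CPM (0.46, adjusted p = 0.711). Neither Sox9 nor Lgr5 passed the test. The list's 1 rise was Sparcl1, a secreted matrix protein, at 54.0 and 92.3 CPM in the Dox libraries against 0 UMIs in the control, at least 12.8-fold higher (adjusted p = 0.0383). It came from 8 and 6 Dox cells, with 49.5% and 58.4% of its UMIs in 1 cell.

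None of 19 genes of the gap junction and transport list, with which supporting cells clear potassium and glutamate from around hair cells, passed. In both Dox libraries 11 of them were lower and 3 higher, at a median of -0.73. Slc1a3, the glutamate transporter GLAST, was at 226 and 87.2 CPM in the Dox libraries, against 506 CPM in the control (-1.69, adjusted p = 0.195). Kcnj10, the potassium channel Kir4.1, was at 22.2 and 16.3 CPM, against 64.2 CPM (-1.72, SE 0.41, adjusted p = 0.119). Gjb6, connexin 30, was at 114 and 68.0 CPM, against 161 CPM (-0.82, adjusted p = 0.355). All 3 lay lower in both Dox libraries, none by an amount that passed the test. Without mitotic members, 5 of 16 transport genes fell, while the falls over all genes were also more numerous there, as given above.

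In the apical matrix list, 2 of 9 genes fell. Otoa, otoancorin, which anchors the tectorial membrane to supporting cells, fell to 7.96 and 6.65 CPM in the Dox libraries, against 56.9 CPM in the control (-2.93, SE 0.452, adjusted p = 0.0404). Its UMIs came from 3, 2 and 5 cells, and without members that had Y-linked UMIs the difference was -0.18. Col11a1, a fibrillar collagen chain, fell to 8.53 and 8.13 CPM, against 56.9 CPM (-2.75, SE 0.438, adjusted p = 0.0457). Tectb, beta-tectorin, had 1 and 588 UMIs in the Dox libraries and 0 in the control, with 289 of the 588 in 1 cell. Its UMIs thus came almost entirely from 1 Dox library, where 5 cells held them. Sox10, an otic and glial factor, did not pass (-0.62, SE 0.359, adjusted p = 0.432), nor did any other of 16 otic progenitor factors.

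Of 16 hair cell genes, 2 fell and 13 were lower in both Dox libraries, at a median of -2.07, and 80.9% of the list's control UMIs came from 1 cell, against 48.5% and 28.4% in the Dox libraries. Ocm, oncomodulin, a calcium-binding protein of outer hair cells, fell to 3.98 and 1.48 CPM in the Dox libraries, against 75.2 CPM in the control, all of it from that 1 cell. Myo6, a myosin of hair cells, fell to 77.9 and 78.3 CPM, against 286 CPM (-1.87, SE 0.269, adjusted p = 0.0323), with 66.0% from 1 cell. Without the 3 deepest cells of each library the list's median was 1.94. Atoh1, which starts hair cell differentiation, had 0 UMIs among the members of each library.

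Of 13 interferon-stimulated genes tested, none rose, 2 fell and 11 were lower in both, at a median of -2.29. Ifit1 fell to 7.39 and 3.69 CPM in the Dox libraries, against 125 CPM in the control (-4.43, SE 0.422, adjusted p = 0.0128), from 8 control cells. Ifit3 had 0 UMIs in both Dox libraries, against 46 in the control, where 82.6% lay in 1 of 5 cells, and was at least 87.6-fold lower. Ifit genes have similar copies, and reads between them may have been divided. The count varied with the choice of cells: 12 of 13 fell without the 3 deepest cells of each library, 6 of 13 without mitotic members and 0 of 11 without members that had Y-linked UMIs. Calls over all genes were also more numerous without the deepest cells and without mitotic members, as listed at the end. One control cell held 31.2% of the list's UMIs.

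Of 11 genes of MHC class I presentation, 1 fell. H2-D1, a class I heavy chain, fell to 139 and 141 CPM in the Dox libraries, against 560 CPM in the control (3.99-fold lower, adjusted p = 0.0196), and the control UMIs came from 16 of 20 cells. B2m, the shared light chain, had a difference of -1.64 (SE 0.279, adjusted p = 0.0557). The list's median was -1.01 and 8 of 11 were lower in both Dox libraries.

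Stress genes changed in both directions. The glutathione transferase Gstm1 had 391 and 305 UMIs in the Dox libraries (222 and 225 CPM), against 2 in the control (3.67 CPM), which is 60.9 times as high (counting interval 16.8 to 504, adjusted p = 0.0128). Another transferase, Gsto1, was at 85.9 and 68.0 CPM, against 5.51 CPM from 3 UMIs, a ratio of 14.2 (4.80 to 69.2, adjusted p = 0.0381). Gpx2, a glutathione peroxidase of epithelia, fell to 2714 and 2207 CPM, against 5925 CPM (-1.27, SE 0.196, adjusted p = 0.0405). These were 2 rises and 1 fall among 22 genes of the NRF2 and glutathione list, whose median was -0.05. Nupr1, a stress-induced chromatin protein of the ATF4 list, rose to 247 and 259 CPM, against 51.4 CPM (2.30, SE 0.32, adjusted p = 0.0306), with 78.6% of control UMIs in 1 cell. Hspa1b and Hspa1a, near-identical copies of inducible HSP70, fell, and 93.5% and 85.9% of their control UMIs came from 1 cell. Timp2, a metalloproteinase inhibitor, fell to 67.7 and 65.0 CPM, against 266 CPM (4.01-fold lower, adjusted p = 0.0292).

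The 10 largest rises that the naming rule took held ribosome assembly genes as well as genes of several other kinds. Tnfaip2, a protein induced by TNF, was at 208 and 260 CPM in the Dox libraries, against 7.34 CPM in the control (4.97, SE 0.477, adjusted p = 0.0128), with 3 of 4 control UMIs in 1 cell. Sfxn1, the mitochondrial serine transporter, was at 120 and 152 CPM, against 11 CPM (3.61, SE 0.472, adjusted p = 0.0247). Ptp4a3, a phosphatase, was at 91.0 and 101 CPM, against 9.18 CPM (3.37, SE 0.476, adjusted p = 0.0317). Each lay above the control in both Dox libraries by more than the Dox libraries differed. Cenpm, a centromere protein, was at 433 and 363 CPM, against 42.2 CPM, with 87.0% of control UMIs in 1 cell. Arhgdig was at 99.5 and 103 CPM, against 11 CPM (3.19, SE 0.451). The 10 were completed by Dkc1, Wdr43 and Npm1, given above, by Bzw2, at 144 and 220 CPM against 22.0 CPM, and by Timm8a1, a chaperone of mitochondrial import, at 95.5 and 129 CPM against 14.7 CPM. These 10 calls were lost under 1 to 5 of the 14 or 15 alternatives tested for each gene.

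Genes without any control UMI and called were Sparcl1, above, and Ydjc, Fut9 and Dctd. Ydjc reached 61.4 and 90.1 CPM in the Dox libraries, which is at least 13.4-fold higher (adjusted p = 0.0262), in 22 of 36 and 20 of 27 cells. Dctd, a deaminase that supplies thymidine nucleotides, reached 39.2 and 41.4 CPM, or at least 7.30-fold higher, in 17 and 20 cells. Fut9, a fucosyltransferase, reached 41.5 and 45.1 CPM, or at least 7.82-fold higher. Ydjc and Dctd were thus spread over many Dox cells, and the Dox libraries were close for Fut9 and Dctd.

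Among called genes with at least 50 UMIs, the largest fall was that of Ifi27l2a, an interferon-inducible gene, to 5.69 and 1.48 CPM in the Dox libraries, against 784 CPM in the control (-7.65, SE 0.344, adjusted p = 0.00607). In the control it came from 5 of 20 cells, with 47.3% in 1, and the call held under all 14 alternatives tested. Lemd1 fell to 2.84 and 5.17 CPM, against 89.9 CPM from 10 cells (-4.49, SE 0.476, adjusted p = 0.0129). Fxyd6, a regulator of the sodium pump, fell to 3.98 and 7.39 CPM, against 99.1 CPM from 9 cells (-4.14, SE 0.445). Lemd1 and Fxyd6 were thus found across several control cells, which holds for the next as well. Pla2g7, which breaks down platelet-activating factor, fell to 21 and 12.6 CPM, against 222 CPM from 9 cells (-3.70, SE 0.381, adjusted p = 0.0128). Foxq1, a forkhead factor, fell to 2.27 and 8.86 CPM, against 77.1 CPM from 8 cells (-3.84, SE 0.474, adjusted p = 0.0213). Most control UMIs of Igf1, Chrna1, Hspa1a and Ocm, in contrast, lay in 1 cell. Igf1 fell to 1.71 and 3.69 CPM, against 89.9 CPM, of which 89.8% came from 1 cell. Chrna1, an acetylcholine receptor subunit, fell to 7.39 and 8.13 CPM, against 139 CPM, of which 94.7% came from 1 cell. Without the 3 deepest cells of each library the Chrna1 difference was 6.22. Ocm, Hspa1a and Ifit1 completed the 10. Lemd1, Fxyd6, Pla2g7, Hspa1a and Ifit1 each lost their call with the rule applied after thinning and without members that had Y-linked UMIs, and Foxq1 with the thinned rule and with no low-count filter.

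**Figure D4:**
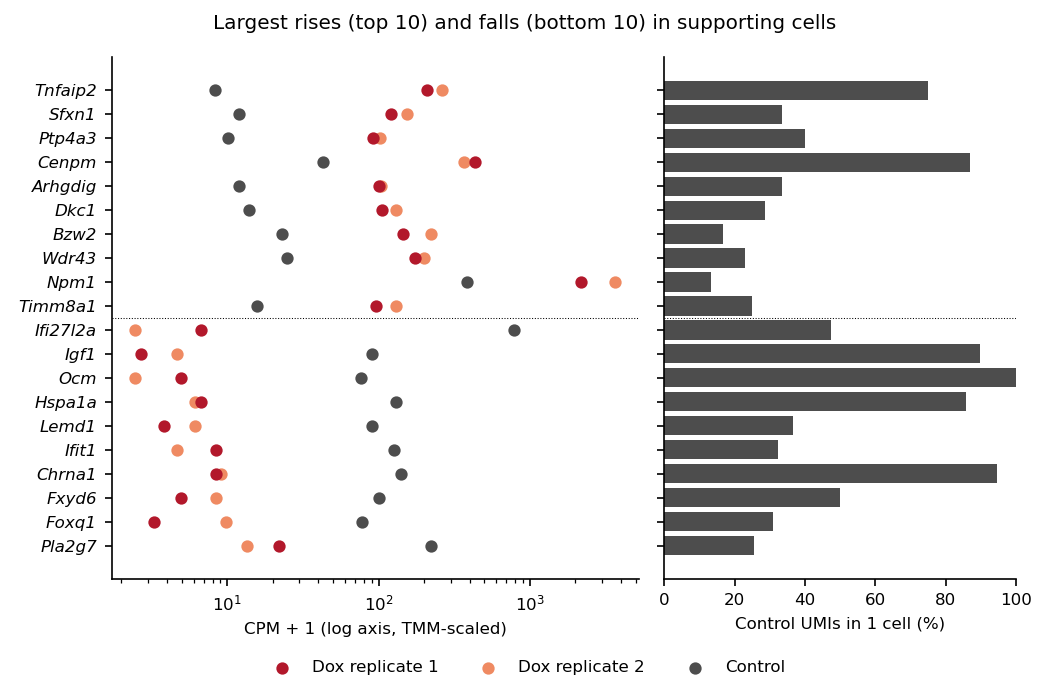
Genes of supporting cells with the 10 largest rises and the 10 largest falls, with the level in each library as CPM plus 1 on a log axis at the left, and the percent of the control UMIs that came from 1 cell at the right. The share in 1 control cell is 100% for Ocm, 94.7% for Chrna1, 89.8% for Igf1, 87.0% for Cenpm and 85.9% for Hspa1a, and 13.4% for Npm1.

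To see where supporting cells differ from their neighbours, they were set against the E-set cells, which numbered 60, 116 and 7 in Dox replicate 1, Dox replicate 2 and the control. The G and R sets had 3 and 16 control cells. The levels of the 2 classes within a library are a description, since the rule separated them by genes measured in the same cells. Rbp7, a retinol-binding protein, was at 194, 139 and 271 CPM in supporting cells of Dox replicate 1, Dox replicate 2 and the control, against 0.547, 0.394 and 0 CPM in E-set cells. Slc1a3 was at 228, 87.0 and 516 CPM, against 15.3, 13.4 and 21.4 CPM (log2 difference 3.57, SE 0.342). Lfng was at 103, 49.4 and 101 CPM, against 10.9, 2.96 and 3.57 CPM (3.68, SE 0.294). Each of these was higher in supporting cells of every library. Kcnj10 was at 22.4, 16.2 and 65.5 CPM, against 0.273, 2.17 and 3.57 CPM (3.90, SE 0.533). Car14, a carbonic anhydrase, was at 98.6, 69.3 and 80.4 CPM, against 1.37, 4.73 and 0 CPM. Calb2, calretinin, was at 36.1, 28.8 and 168 CPM, against 0 CPM in each. The hair cell marker Otof was at 25.8, 8.11 and 133 CPM, against 0 CPM in each. The part of hair cell RNA in these contrasts was not tested. Slc1a3 and Kcnj10 thus lay higher in the members under both treatments, but their list was not uniform: Glul, glutamine synthetase, was at 38.4, 71.5 and 24.3 CPM in supporting cells, against 56.0, 71.0 and 92.9 CPM in E-set cells.

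Some matrix genes were lower in supporting cells and others higher. Lum, the proteoglycan lumican, was at 11.5, 19.9 and 101 CPM, against 198, 261 and 1532 CPM in E-set cells (-3.91, SE 0.185). Col2a1, the collagen of cartilage and of the tectorial membrane, was at 1.15, 1.47 and 0 CPM, against 13.4, 12.6 and 21.4 CPM. Col11a1 was at 8.60, 8.11 and 58.0 CPM, against 45.9, 31.8 and 154 CPM. These 3 lay lower in supporting cells of every library, while the matrix gene Otoa was lower in none, at 8.03, 6.63 and 58.0 CPM against 1.37, 6.31 and 3.57 CPM. Heyl, at 220, 84.0 and 13.1 CPM against 72.4, 44.6 and 3.57 CPM, and Jag1, at 206, 145 and 29.9 CPM against 82.6, 69.0 and 14.3 CPM, were higher in supporting cells of every library. Hes5 was at 3.98, 13.6 and 0 CPM in E-set cells, below the members' Dox levels.

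**Figure D5:**
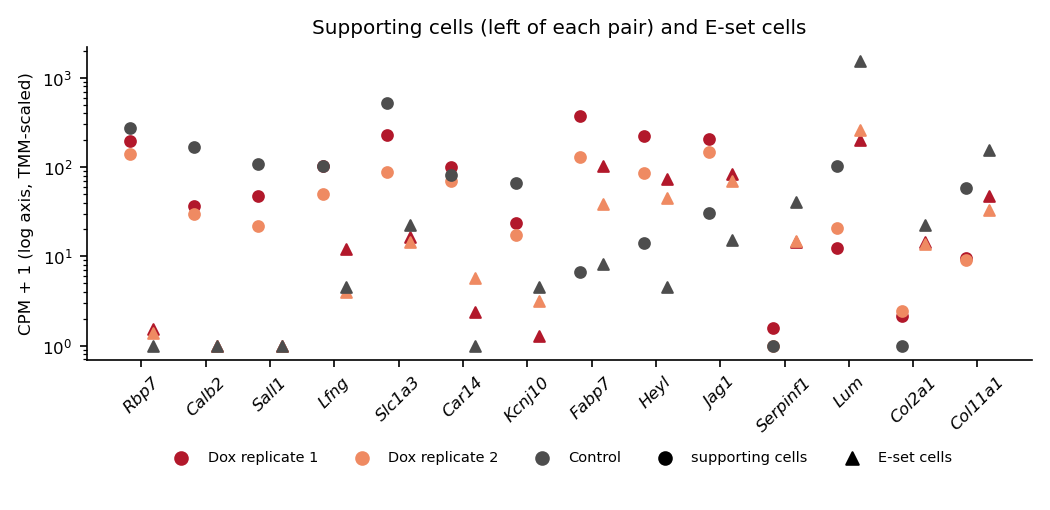
Levels of 14 genes in supporting cells (circles, left of each pair) and E-set cells (triangles) of each library, as CPM plus 1 on a log axis. Lfng, Slc1a3, Car14, Kcnj10, Heyl and Jag1 lie higher in supporting cells of each library, and Lum and Col11a1 lower.

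Whether supporting cells responded to Dox differently was tested as the difference between the 2 classes' responses, with the library as a block (edgeR, 1 residual degree of freedom). Of 11395 genes, 17 had a higher difference in supporting cells (0.149%) and 26 a lower one (0.228%), and 1385 had an unadjusted p of 0.05 or less. The comparison rests on 7 control E-set cells. In E-set cells of Dox replicate 1, Dox replicate 2 and the control, the supporting set summed to 144, 135 and 1067 CPM. Their own E set summed to 1267, 1210 and 9949 CPM. Control E-set cells thus carried more RNA of both sets, and the part of this in the differences was not tested. Notch1 had a log2 fold change of 2.75 in supporting cells and 1.68 in E-set cells, a difference of 1.08 that did not pass (adjusted p = 0.250). Nrarp, with 6.26 and 5.01, did not pass (adjusted p = 0.628), nor did Hey1, with 1.82 and -0.18 (adjusted p = 0.0838). Npm1, with 2.92 and 2.32, differed by 0.55 (adjusted p = 0.514), and Rpl10a, with 2.62 and 1.72, by 0.90 (adjusted p = 0.157). None of 9 Notch effectors and none of 82 ribosomal protein genes passed, which does not show that the classes responded alike.

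Gstm1 differed by 3.86 (adjusted p = 0.0276), with log2 fold changes of 5.89 in supporting cells and 2.05 in E-set cells. In E-set cells it was at 405, 410 and 97.7 CPM in Dox replicate 1, Dox replicate 2 and the control, so its control level was the one that differed most between the classes. With cells thinned to 1000 UMIs this difference was -1.22. Gjb6 differed by 4.07 (adjusted p = 0.0210): it was at 115, 68.1 and 162 CPM in supporting cells, against 2.48, 2.98 and 87.2 CPM in E-set cells. Igfbp3, a binding protein of insulin-like growth factors, was at 133, 144 and 3.67 CPM in supporting cells, from 2 control UMIs, against 0.275, 4.77 and 76.8 CPM in E-set cells. Its 2 control classes and its Dox levels were thus in opposite order. Ifi27l2a, lower with Dox in both classes, had log2 fold changes of -7.65 in supporting cells and -3.89 in E-set cells, a difference of -3.88 (adjusted p = 0.0149). Of 32 mitosis genes, 12 had a lower difference in supporting cells, where 1 control cell held nearly all control UMIs.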

How the data were processed

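Single-cell RNA was measured in 3 libraries made with 10x Genomics 3′ chemistry, version 3.1, from dissociated cochlear sensory epithelium, per the labels' protocols. The authors deposited UMI counts per gene and barcode, 1 matrix a library, over 31053 genes and 2395 barcodes (788 and 1095 Dox, 512 control). Per the submitters' processing notes, Cell Ranger 5.0, STAR and Seurat 3.2.2 were used with mm10, also named GRCm38. The matrix headers name software version 3.1.0, and these sources do not say which made the counts. The sources used here do not give the setting for intron counting. Library totals were 20309102 and 33385927 UMIs (Dox) and 5436731 UMIs (control).

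Cells were kept with at least 200 genes and 1 to 20% mitochondrial UMIs. The members, gene lists and naming rule were chosen with earlier results of these data known. Gene levels in the rule are log1p of UMIs per 10000. Member counts were summed per library and tested with edgeR 4.0.16 in R 4.3.3 (filterByExpr, TMM, quasi-likelihood F test, 1 residual degree of freedom, Benjamini-Hochberg adjustment over all tested genes, threshold 0.05). Of Epcam and the 20 rule genes, 15 were in the fit of Dox against control and in its adjustment, but no test result is given for any of them. Members and E-set cells were compared in 1 model with the library as a block. The G and R sets were not compared alone, having under 20 cells in some library. The test of each gene assumes that the lone control would vary as the Dox libraries do. CPM of tested genes are TMM-scaled, while CPM of rule genes, markers, macrophage-marker cells and single genes in E-set cells given without a pair are not. Folds against 0 UMIs are bounds at 3 UMIs over the group, and levels from 1 to 3 control UMIs have a 95% counting interval. Intervals and limits cover counting error only.

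Named genes were Notch1 and Myc, the 10 largest rises (at least 4 control UMIs) and 10 largest falls among called genes with both Dox libraries on 1 side and a minimum of 50 UMIs, up to 6 called genes without control UMIs, and up to 4 genes per list by smallest p. For the difference between classes, the 8 largest in each direction were taken. Of 780 entries in 34 lists, 778 matched a gene. Gene positions are 1-based, from GENCODE M21 on GRCm38, and promoters are from RefSeq on GRCm38.p6. Alternatives were DESeq2's size factors and Wald test (DESeq2 1.42.0), total count scaling, no low-count filter, edgeR's legacy fit, at least 3 set genes, stricter limits for cells (500 genes or more and mitochondrial UMIs up to 10%), thinning to 1000 UMIs, and members left out by depth, markers of other types or library. Leaving out members by shared barcode, Malat1 (under 10 UMIs per 10000), mitosis genes or Y-linked UMIs, and comparing with the E, G and R sets as 1 class, were chosen after seeing the data. The steps were tested on simulated counts. Python 3.11.15 was used with scanpy 1.11.5.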

Additional observations from a re-analysis of the deposited data

Results flagged for a closer look

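The response to Dox differed between supporting cells and E-set cells, by a test of the difference itself (edgeR, library as a block, adjusted p of 0.05 or less), in the 16 genes given here as the log2 response in supporting cells minus that in E-set cells. Of the 43 genes that passed, 9 were shared with the 43 that passed without mitotic cells, and with no low-count filter 1 gene passed. The difference was 3.86 for Gstm1, 4.07 for Gjb6, 4.36 for Thbs1 and 4.88 for Liph, but -1.22 for Gstm1 with thinned cells and -3.25 for Thbs1 without mitotic cells. It was 10.10 for Igfbp3, 10.52 for C3, 11.45 for Serpina3n and 12.25 for Wfdc12. The last 3 had 0 UMIs in control supporting cells, so their fitted values depend on the prior count and are no bounds. Wfdc12, a whey acidic protein family member, had 7, 6 and 0 UMIs in supporting cells of Dox replicate 1, Dox replicate 2 and the control, against 13, 16 and 67 in E-set cells. Complement C3 had 0, 13 and 0 UMIs in supporting cells, against 73, 173 and 164 in E-set cells.

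Lower differences were -14.11 for Cenpf, -13.85 for Prc1, -13.19 for Cdk1 and -12.76 for Ube2c, all genes of mitosis. They were -12.63 for Cdca8, -12.42 for Ckap2, -12.09 for Tpx2 and -12.53 for Ptcra. For these 8 genes the 7 control E-set cells had 0 UMIs, so the values depend on the prior count and are no bounds. In control supporting cells 96.7% of the mitosis list's UMIs lay in 1 cell. Cenpf had 166, 249 and 273 UMIs in supporting cells of Dox replicate 1, Dox replicate 2 and the control, against 1066, 1352 and 0 in E-set cells.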

How the results depend on the processing

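No paired analysis was possible because there is 1 control library and its label carries no replicate number. Genes called for Dox against control numbered 174. They numbered 391 with DESeq2's size factors, 291 with total counts, 90 with no low-count filter, 281 with the legacy fit, 721 with at least 3 S genes, 401 with the strict cell filter, 805 without the deepest cells, 75 without members carrying markers of other types, 260 without members low in Malat1, 156 without members with Y-linked UMIs, 284 without shared barcodes, 588 without mitotic members, 3 with the rule applied after thinning and 0 of 453 with thinned cells, where 133 had an unadjusted p of 0.05 or less. Of the 174, 167 were called without mitotic members, 157 without the deepest cells and 59 without members carrying markers of other types. The difference between classes gave 43 genes, against 1 with no low-count filter, 107 with at least 3 set genes, 1 with thinned cells and 10 with the E, G and R sets together. Without mitotic cells it again gave 43, of which 9 were shared. Supporting against E-set cells gave 240 genes, used only to choose which to name, against 28 with thinned cells, 591 without mitotic cells, 453 with the 3 sets together, and 2 to 33 without 1 Dox replicate. The share of Epcam-positive cells was 6.97% and 1.57% in the Dox libraries after thinning, and 32.3% in the control with the strict filter.

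Directions turned as follows, and the cause was not tested. Without members with Y-linked UMIs the log2 differences were 0.60 for Hes1, 6.08 for Chrna1, 0.51 for Odc1, 3.11 for Prc1, -0.73 for Lgr5, 0.40 for Myo6 and 0.12 for Hspa1b, and the list medians 7.22 for mitosis and 6.75 for hair cell genes. Without the deepest cells they were 6.22 for Chrna1 and -0.077 for Lgr5, with medians of 3.31 for mitosis, 1.94 for hair cell and -0.030 for identity genes. Without mitotic members they were -0.13 for Lgr5 and 0.0043 for Lfng, and the Thbs1 difference between classes was -3.25. Without 1 Dox replicate, Hes1 lay between -1.65 and 0.72 and Lfng between -0.996 and 0.026. Hes1 was 0.029 with no filter and 0.0089 with the strict filter. After thinning of the rule the medians were 0.71 for mitosis and 2.34 for hair cell genes. With thinned cells they were -0.95 for nucleotide and 3.03 for apical matrix genes, and the Gstm1 difference between classes was -1.22. Depth limits the control most: with 448191 UMIs in 20 cells, many control levels rest on 1 cell. In Dox against control and in the difference between classes, leaving out 1 Dox library left no residual degree of freedom, so those values have no test.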
